A study of Mus musculus with 7 samples.

Results

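The 70 genes described here are the mouse protein-coding genes whose symbol is Gpr followed by a number alone, together with Pgr15l, taken from a table of 55384 genes. The rule uses symbols alone, and Pgr15l was added to it by name. RNA held by tagged ribosomes of kisspeptin cells was sequenced in 7 libraries from female C57BL/6 mice of the genotype Kiss1Cre+/Rpl22HA+/+, in which cells with Kiss1-driven Cre carry an HA tag on the ribosomal protein Rpl22. The cells came from punches of the AVPV (anteroventral periventricular nucleus), whose kisspeptin cells respond to estradiol. In the 4 GDX libraries the mice had been ovariectomized and had no estradiol, and in the 3 E2 libraries they had been treated with estradiol. The labels do not say whether the E2 mice were also ovariectomized, and dose, duration and age are not given in the sources used here. Each library was a pool of 4 brains, so every p-value measures the spread between pools. Ribosomes are tagged in any cell in which Kiss1-driven Cre has been active at any time of life, and the pulldown can also carry RNA of untagged cells.

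G protein-coupled receptors cross the membrane with a bundle of helices and pass a signal to G proteins inside the cell, which raise or lower second messengers such as cyclic AMP. A numbered Gpr symbol was given to a receptor found by sequence before a ligand was known, and a receptor without an accepted ligand is called an orphan. Several members have since been paired with ligands, some signal without any ligand, and some with this symbol are now known as proteins of the Golgi or lysosome. In the hypothalamus such receptors have been studied for feeding, body clock timing and reproduction.

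The 7 libraries held between 29207544 and 36213127 counts. Levels are given as CPM, counts per 1000000 counts of a library scaled with TMM factors. A floor of 3 counts, taken here as the limit of detection, corresponded to 0.0817 to 0.101 CPM. All 8 marker genes listed for AVPV kisspeptin cells were detected, among them Kiss1 at 44.5 to 113.5 CPM in the GDX libraries and 379 to 485 CPM in the E2 libraries. Marker genes of other cells were also present, none of them at 0 in every library. The summed astrocyte markers were 808 to 2747 CPM in the GDX libraries against 569 to 670.0 CPM with estradiol, and those of endothelial and mural markers 235 to 592.5 CPM against 128 to 212 CPM. Both sums were higher in every GDX library than in any E2 library, with the highest values in GDX replicates 1 and 4, though 0 of 7 astrocyte and 0 of 6 endothelial and mural markers passed the test. Summed oligodendrocyte markers were 2800 to 5809 CPM in GDX, where replicate 1 was highest, and 2588 to 3111 CPM in E2.

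Of the 70 genes, 55 passed the filter on low counts and 15 did not. A mean of at least 1 CPM in either group was reached by 48 genes, at least 5 CPM by 35, at least 10 CPM by 32 and at least 50 CPM by 8. Those 8 were Gpr162, Gpr158, Gpr101, Gpr26, Gpr107, Gpr153, Gpr137 and Pgr15l, the last of these only in GDX. Added up, the 70 genes made 1283 to 1329 CPM in the GDX libraries and 1206 to 1282 CPM in the E2 libraries. Without Pgr15l the sums were 1221 to 1259 CPM and 1190 to 1265 CPM, so that the remaining sums overlapped between the groups.

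Of the 55 tested receptor genes 1 fell in E2 and the other 54 did not pass the test. By the edgeR quasi-likelihood test with Benjamini-Hochberg adjustment over all 18282 genes tested, Pgr15l was lower in E2 and no member was higher. That is 1.82% of the 55 tested members, where 3.88% of all genes tested were called, 2.55% higher and 1.33% lower. Pgr15l is the gene added to the rule by name, and none of the other 54, which the symbol rule gave, was called. With no adjustment, 17 members had a p under 0.05, 9 of them higher and 8 lower. That was 30.9% of the tested members, beside 16.8% of all genes tested. DESeq2 called 3 members higher and 5 lower, and limma-voom called 1 higher and 3 lower. The GDX and E2 libraries did not overlap for 16 of the 55 members, 8 higher and 8 lower in E2. This is 29.1%, beside 16.5% of all genes tested, of which 8.43% were separated upward and 8.06% downward. The median log2 fold change of the tested members was -0.027, and that of all genes tested was 0.00403.

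**Figure D1:**
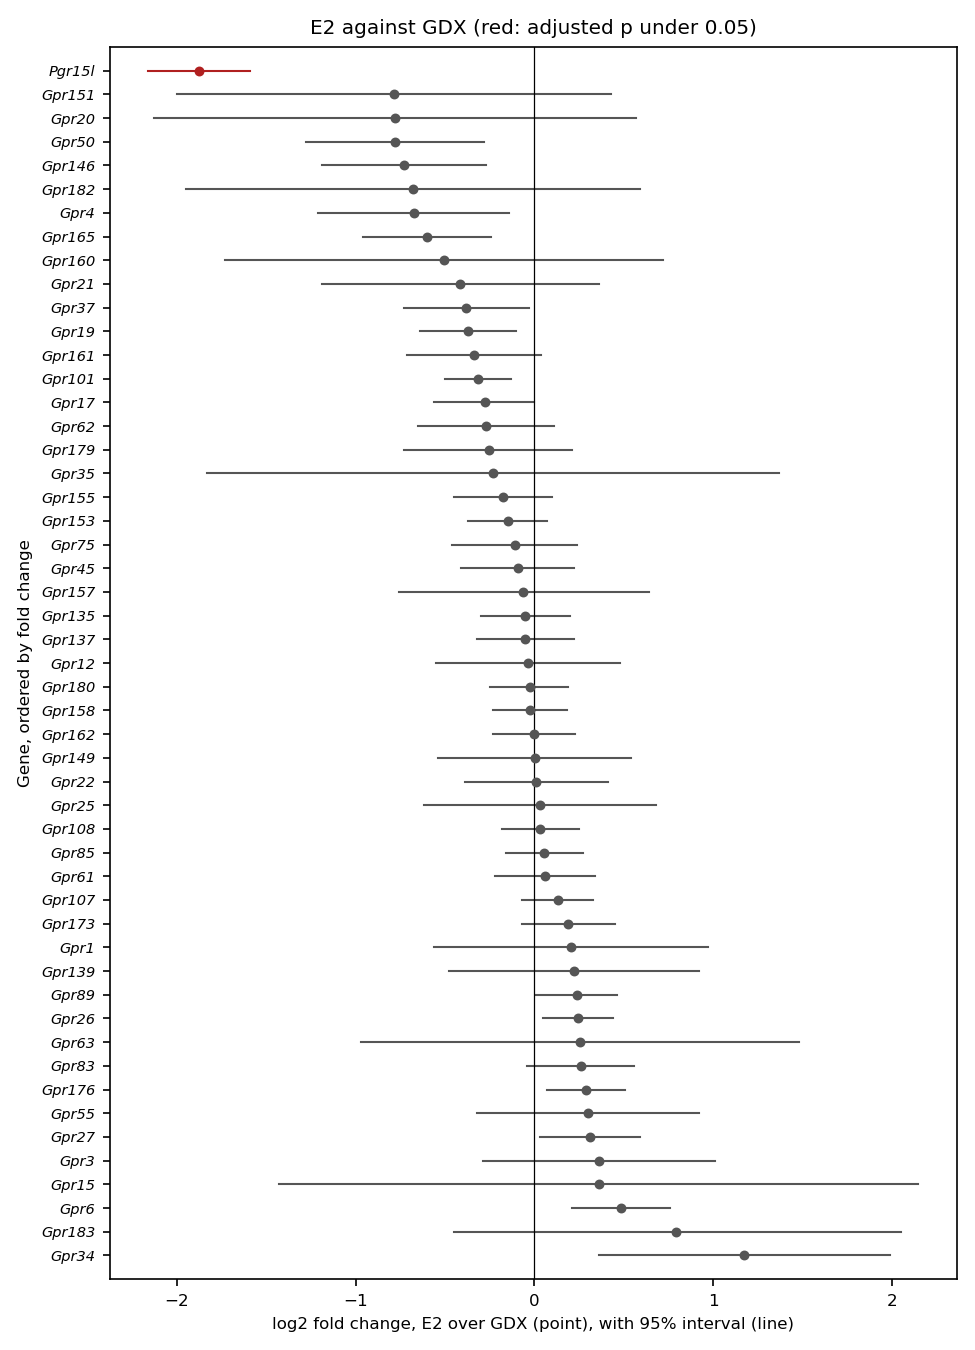
Log2 fold change of E2 over GDX (x axis) for 51 of the tested genes (y axis, ordered by fold change), as a point with its 95% interval. Pgr15l, in red, is the gene with an adjusted p under 0.05, with an interval from -2.16 to -1.59.

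Pgr15l (ENSMUSG00000031212) is a gene for an orphan class A receptor on the X chromosome, 97072596 to 97082104 on the plus strand of GRCm38. It was measured at 47.9, 69.6, 57.0 and 61.8 CPM in GDX replicates 1 to 4 and at 15.6, 15.9 and 16.8 CPM in the E2 libraries. Each GDX library was thus well above all E2 libraries, and the E2 libraries lay close together. The GDX mean was 59.0 ± 9.08 CPM (SD, n = 4), and the E2 mean of 16.1 ± 0.611 CPM (SD, n = 3) was 3.67-fold lower. The log2 fold change was -1.88 ± 0.13 (SE), with a 95% interval of -2.16 to -1.59 and an edgeR adjusted p of 5.97e-06. Of the 243 genes that fell, 28 fell at least as far, counting Pgr15l itself. Its share of the counts of all 70 members was 3.68% to 5.24% in GDX and 1.29% to 1.31% in E2. In a pulldown from pooled tissue, fewer cells with the RNA and less RNA per cell cannot be told apart. Pgr15l stayed lower with adjusted p values up to 0.00021 in 18 alternative fits. With a score of non-neuronal markers for each library (their mean log2 CPM, 5.56 to 6.29 in GDX and 5.22 to 5.48 in E2) as a covariate, its log2 fold change was -2.05.

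Gpr165, an orphan receptor gene, lies 353207 bp before Pgr15l on the same strand of the X chromosome, at 96713441 to 96719388. It was measured at 37.4, 46.5, 38.2 and 57.5 CPM in the GDX libraries and at 30.7, 24.9 and 33.3 CPM in E2. All GDX libraries were above all E2 libraries, though the nearest were only about 4 CPM apart. The log2 fold change of -0.60 ± 0.16 did not pass (edgeR adjusted p = 0.0734). DESeq2 gave an adjusted p of 0.00675, and the edgeR fit without GDX replicate 3 gave 0.047. Leaving out any other library gave edgeR adjusted p values of 0.0536 to 0.247, and the replicate number as a block gave 0.146. Exons of Pgr15l and Gpr165 share no window of 50 bases with each other. Pgr15l shares no such window with any other annotated transcript, and 0.353% of those of Gpr165 occur elsewhere.

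Sequence around the annotated starts was available for 50 of the 70 members, in 66 windows of 300 bases from RefSeq on GRCm38.p6, each with 250 bases before and 50 after the start. The full estrogen response element, GGTCA and TGACC parted by 3 bases of any kind, was searched on both strands and was found in none of the 66 windows and in 0.07% of 32851 windows of all genes. The arm GGTCA alone, which is part of the full element, was found in 29 windows, 43.9%, beside 40.5% of all windows. The cyclic AMP response element TGACGTCA was found in 1 window, that of Gpr6, beside 1.79% of all windows, and the TATA motif TATAAA in 7 windows, 10.6% beside 13.6%. The windows of 4 members are shown: the gene that fell, its neighbour, the X-linked Gpr50 with GGTCA, and Gpr6 with TGACGTCA. Capitals mark GGTCA in Pgr15l and Gpr50, TATAAA in Gpr165 and TGACGTCA in Gpr6.
Pgr15l, chrX:97072346-97072645, plus strand: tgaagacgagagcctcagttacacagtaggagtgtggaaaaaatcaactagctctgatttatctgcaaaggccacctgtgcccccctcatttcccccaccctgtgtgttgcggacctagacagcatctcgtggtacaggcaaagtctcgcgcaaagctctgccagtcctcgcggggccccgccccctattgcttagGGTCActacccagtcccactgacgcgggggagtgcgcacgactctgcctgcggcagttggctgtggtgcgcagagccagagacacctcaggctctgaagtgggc
Gpr165, chrX:96713218-96713517, plus strand: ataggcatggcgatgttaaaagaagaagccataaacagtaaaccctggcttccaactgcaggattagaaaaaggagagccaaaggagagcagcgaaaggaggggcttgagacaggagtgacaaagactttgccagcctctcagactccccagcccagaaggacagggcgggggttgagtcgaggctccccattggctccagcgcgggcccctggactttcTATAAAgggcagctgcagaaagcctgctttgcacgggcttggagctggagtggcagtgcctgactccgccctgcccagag
Gpr50, chrX:71663417-71663716, plus strand: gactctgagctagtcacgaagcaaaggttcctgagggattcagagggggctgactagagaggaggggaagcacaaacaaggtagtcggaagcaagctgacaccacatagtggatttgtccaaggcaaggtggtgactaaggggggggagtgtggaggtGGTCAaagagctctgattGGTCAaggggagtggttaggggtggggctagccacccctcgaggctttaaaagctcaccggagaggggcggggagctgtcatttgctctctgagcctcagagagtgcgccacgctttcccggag
Gpr6, chr10:41072241-41072540, minus strand: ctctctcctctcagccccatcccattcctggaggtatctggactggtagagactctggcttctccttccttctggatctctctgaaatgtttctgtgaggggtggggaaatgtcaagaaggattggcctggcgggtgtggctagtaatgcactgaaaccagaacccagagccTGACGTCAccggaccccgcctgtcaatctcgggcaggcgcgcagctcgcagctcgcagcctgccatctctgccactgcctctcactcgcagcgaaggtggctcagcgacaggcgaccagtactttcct
In Pgr15l the GGTCA began 54 bases before the start, in Gpr50 at 92 and 74 bases before it, in Gpr165 the TATAAA 30 bases before and in Gpr6 the TGACGTCA 78 bases before. These matches are letters in a window and were not tested for binding or function.

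**Figure D2:**
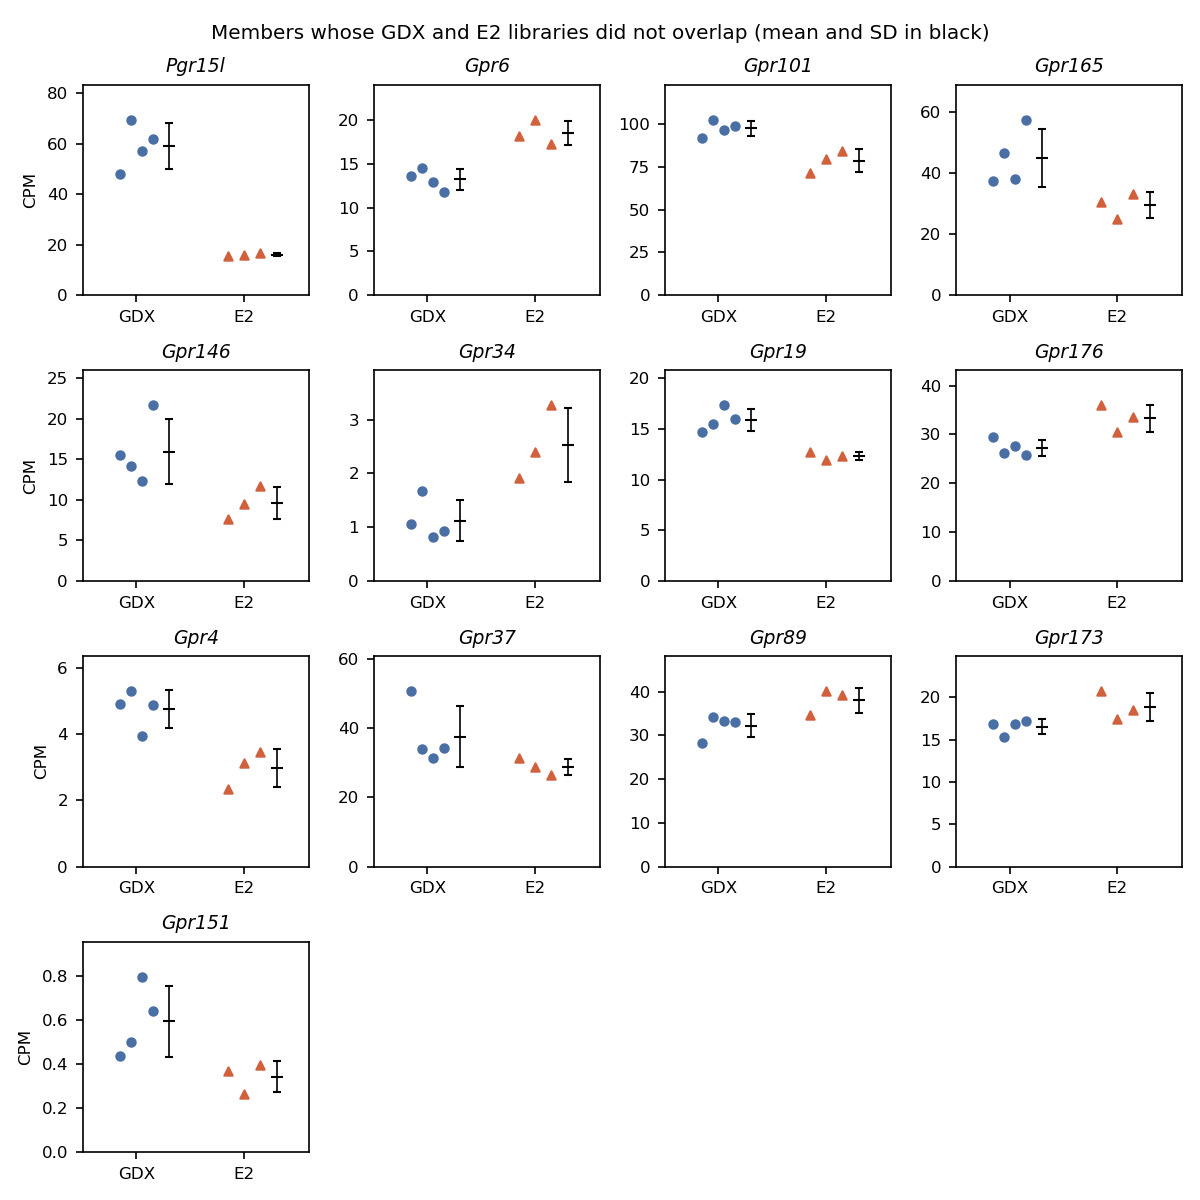
CPM (y axis, from 0) of 13 tested genes whose 4 GDX libraries (circles) and 3 E2 libraries (triangles) did not overlap, each with the mean and SD in black. Pgr15l shows the widest gap, 47.9 CPM or more in GDX against 16.8 CPM or less in E2, and the others lie closer together.

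Gpr101, an X-linked gene for a receptor that raises cyclic AMP without a ligand, was among the most abundant members. It was measured at 92.0, 102.5, 96.6 and 99.0 CPM in the GDX libraries and at 71.2, 79.6 and 84.4 CPM with E2. All GDX libraries were again above all E2 libraries. The log2 fold change of -0.32 ± 0.08 had an edgeR adjusted p of 0.061, and limma-voom gave 0.0381 and DESeq2 0.0117. By edgeR it was 0.0579 to 0.275 with 1 library left out and 0.106 with the replicate number as a block. Gpr50, an X-linked relative of the melatonin receptors that does not bind melatonin and marks tanycytes, was 24.6, 16.2, 22.6 and 34.3 CPM in the GDX libraries and 16.5, 12.8 and 13.4 CPM with E2. The groups overlapped at GDX replicate 2 (log2 fold change -0.78 ± 0.22, edgeR adjusted p = 0.1), and without that library the adjusted p was 0.0195. Leaving out any other library gave edgeR adjusted p values of 0.0674 to 0.299. DESeq2 gave 0.00765, and with the non-neuronal score in the fit the log2 fold change was -0.43 (adjusted p = 0.802). Summed markers of ependyma and tanycytes ran from 54.8 CPM in GDX replicate 2 to 104.6 CPM in GDX replicate 4, the lowest and highest GDX libraries for Gpr50. In E2 they ran from 26.7 CPM in replicate 1, where Gpr50 was highest, to 54.1 CPM in replicate 3. Of the 5 tested markers 1 fell, Rarres2, and their part in the Gpr50 values was not tested. Rax, a defining tanycyte marker, was at most 0.308 CPM in any library.

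Altogether 10 members lie on the X chromosome, and 6 of them passed the filter. Beside Pgr15l, Gpr165, Gpr101 and Gpr50, these were Gpr173 and Gpr34, both of which had higher means in E2. Of the 629 tested X-linked genes, 19 fell and 26 rose, and of 17621 autosomal genes 224 fell and 441 rose. Among the 49 tested autosomal members none was called by edgeR.

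The receptors Gpr3, Gpr6 and Gpr12 form a family that keeps cyclic AMP high without a ligand, and all 3 genes were present. Gpr6 was measured at 13.7, 14.5, 12.9 and 11.8 CPM in the GDX libraries and at 18.2, 20.0 and 17.3 CPM with E2. Every E2 library was above every GDX library. The log2 fold change of 0.49 ± 0.13 had an edgeR adjusted p of 0.0593, and limma-voom gave 0.045 and DESeq2 0.0148. By edgeR it was 0.072 to 0.248 with 1 library left out and 0.17 with the replicate number as a block. Gpr12 was 6.99 ± 1.46 CPM (GDX) and 6.82 ± 1.57 CPM (E2), and Gpr3 was lowest, at 2.62 ± 0.751 and 3.37 ± 0.403 CPM (SD, n = 4 and 3). Neither passed the test, with log2 fold changes of -0.04 and 0.36.

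The SREB receptors, named for their strong conservation and their expression in brain, were all present. Gpr27 was measured at 39.5 ± 3.72 CPM (GDX) and 49.0 ± 9.77 CPM (E2), where replicate 3 held 60.1 CPM and the groups overlapped (log2 fold change 0.31 ± 0.13, edgeR adjusted p = 0.245). Without that library the log2 fold change of Gpr27 was 0.14. Gpr85 was 34.8 ± 2.27 and 36.1 ± 2.92 CPM. Gpr173, on the X chromosome and proposed as a receptor for the reproductive peptide phoenixin, was 16.8, 15.3, 16.8 and 17.2 CPM in the GDX libraries and 20.7, 17.5 and 18.4 CPM with E2. Its E2 libraries lay just above the GDX libraries, and its log2 fold change of 0.19 ± 0.12 had an edgeR adjusted p of 0.469. None of the 3 passed.

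Class C receptors carry a large domain outside the cell. Gpr158, which binds the RGS7 complex at the membrane and has been described as a glycine receptor, was among the most abundant members, at 83.7 to 103.7 CPM in the GDX libraries and 85.8 to 98.1 CPM with E2. Its log2 fold change of -0.02 had a 95% interval of -0.23 to 0.18. Gpr179, a relative known from retinal bipolar cells, was 5.73 ± 0.792 and 4.80 ± 0.709 CPM.

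The largest group, class A receptors of neurons and other brain cells, had 27 of 31 genes that passed the filter, and Pgr15l was the gene of this group that changed. Gpr162, an orphan receptor gene and the most abundant member, held 120.2 to 172 CPM in the GDX libraries and 142 to 153 CPM with E2. Its log2 fold change of -0.00 had a 95% interval of -0.23 to 0.23. Gpr153, its close relative, was 70.2 ± 6.44 and 63.3 ± 6.92 CPM (log2 fold change -0.15, edgeR adjusted p = 0.521). Gpr26, an orphan receptor that raises cyclic AMP without a ligand, was 66.2, 61.8, 65.5 and 73.4 CPM in the GDX libraries and 79.7, 73.2 and 84.5 CPM with E2. Of its E2 libraries, replicate 2 fell below GDX replicate 4, and the adjusted p was 0.17.

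Gpr176, an orphan receptor of the body clock nucleus that signals through Gz, was 25.8 to 29.4 CPM in the GDX libraries and 30.4 to 35.9 CPM with E2. Its E2 libraries were all above GDX, but the call was not made (log2 fold change 0.29 ± 0.10, edgeR adjusted p = 0.159). Gpr19, an orphan receptor gene, was 14.7 to 17.3 CPM in GDX and lower in each E2 library, at 11.96 to 12.7 CPM (-0.37 ± 0.12, adjusted p = 0.146). Antisense gene 2810454H06Rik overlaps 9.25% of the Gpr19 exon length, so that in libraries without strand some of its reads could be counted as Gpr19.

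Gpr83, proposed to bind the peptide PEN cut from proSAAS, was 22.5 ± 2.47 CPM (GDX) and 26.9 ± 4.32 CPM (E2) (log2 fold change 0.26 ± 0.13, edgeR adjusted p = 0.373). Gpr61, an orphan with activity of its own, was 21.3 ± 2.36 and 22.2 ± 2.66 CPM, and the orphan Gpr45 was 21.3 ± 2.25 and 19.9 ± 3.55 CPM. Gpr135, also an orphan, was 18.4 ± 1.13 and 17.8 ± 0.700 CPM, and Gpr75 was 12.9 ± 2.25 and 11.9 ± 0.722 CPM. Gpr161, a receptor of the primary cilium that restrains Hedgehog signalling, was 14.5 ± 1.64 and 11.5 ± 2.39 CPM (adjusted p = 0.355). None of these passed. The 95% intervals lay within 1 log2 unit on either side of no change for 39 of the 54 members that were not called.

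Further members of this group were low. Gpr22 was 6.79 ± 0.651 CPM (GDX) and 6.85 ± 0.773 CPM (E2), and Gpr149 was 4.36 and 4.37 CPM. Gpr139, a receptor of the habenula that responds to aromatic amino acids, was 3.19 ± 1.03 and 3.72 ± 0.817 CPM. Gpr21 was between 1 and 2 CPM in both groups, and Gpr63 and Gpr160 had means under 1 CPM. Gpr151, the habenular marker on chromosome 18, was 0.436 to 0.796 CPM in the GDX libraries and 0.264 to 0.396 CPM with E2, separated but near the limit of detection, with an adjusted p of 0.542.

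**Figure D3:**
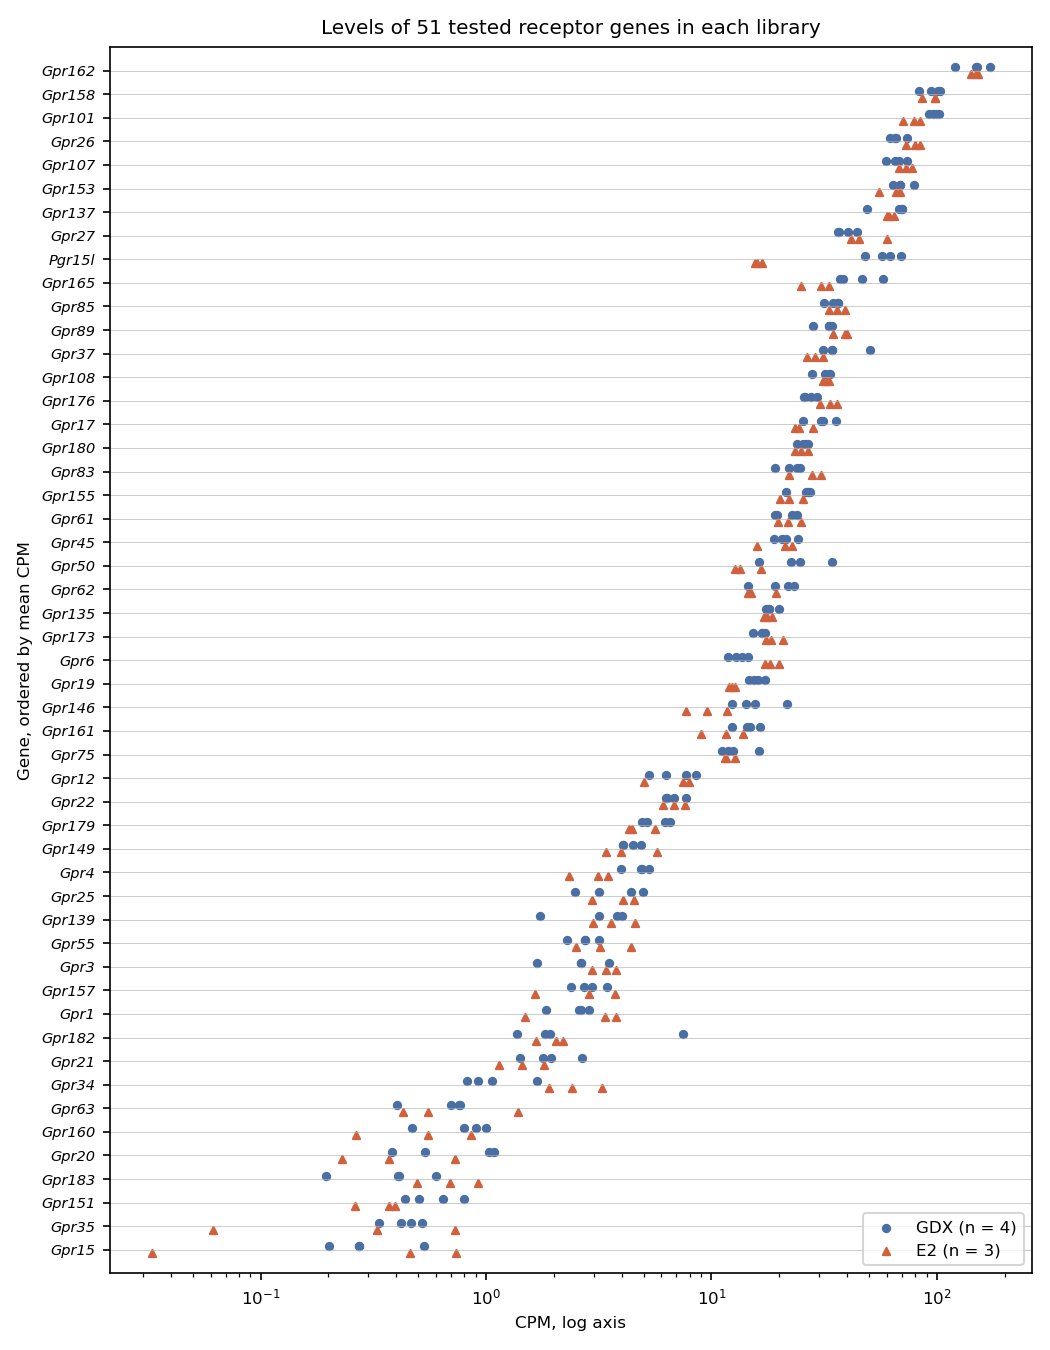
CPM on a log axis (x) of 51 tested genes (y, ordered by mean) in each of 4 GDX libraries (circles) and 3 E2 libraries (triangles). Levels run from under 1 CPM to above 100 CPM for Gpr162, and Pgr15l is the gene whose triangles stand far to the left of its circles.

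In this paragraph genes are compared with each other per exon length, as CPM per kb of merged exons, and not by CPM as above. On that scale Gpr162 was highest, at 38.6 ± 5.56 in GDX and 38.6 ± 1.47 in E2. Gpr137, Gpr153, Gpr101 and Gpr27 followed in GDX at 18.9, 17.9, 18.0 and 16.5 CPM per kb, and the SDs of these 4 overlapped. Gpr180, Gpr158 and Gpr108 came next at 13.7, 11.7 and 11.1 CPM per kb in GDX. Pgr15l stood near them in GDX, at 10.98 ± 1.69 CPM per kb, and far lower in E2, at 2.99 ± 0.114 CPM per kb. Gpr26, among the 8 genes above 50 CPM, has 11571 bp of merged exons and reached only 5.77 CPM per kb in GDX.

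**Figure D4:**
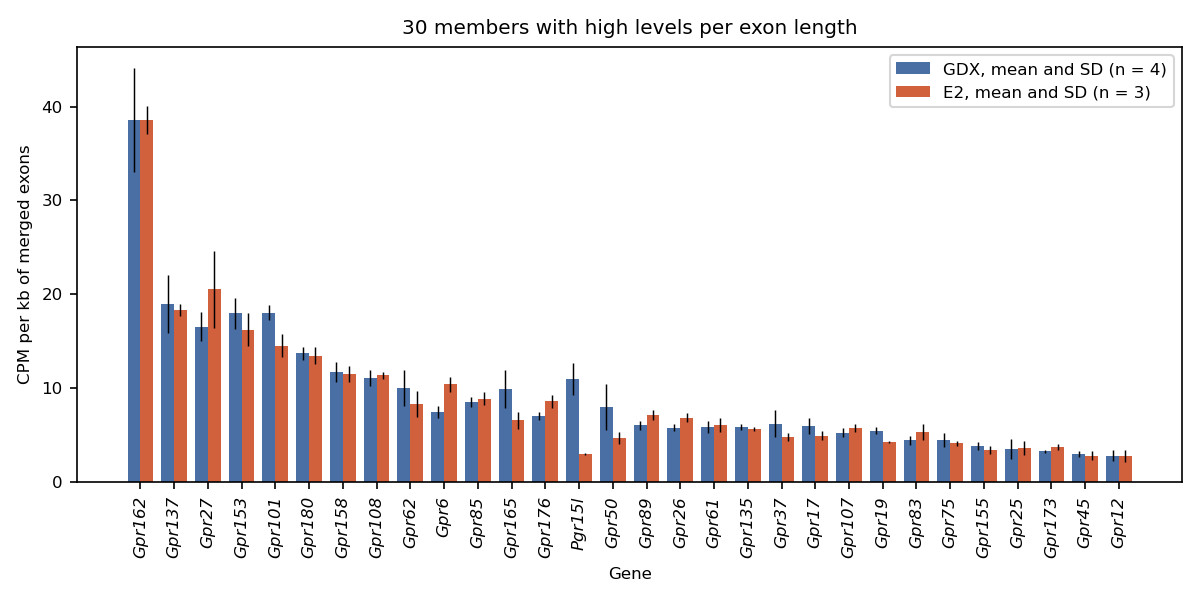
Level per kb of merged exons (y axis, from 0) of 30 members high on this scale (x axis), as group means with SD for 4 GDX and 3 E2 libraries. Gpr162 stands above the rest at 38.6 CPM per kb, and the Pgr15l bars stand at 10.98 in GDX and 2.99 in E2.

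Proton sensors are receptors switched on by acid. Gpr4, which is known from blood vessels, was 3.95 to 5.29 CPM in the GDX libraries and 2.34 to 3.46 CPM with E2, where all libraries were lower (log2 fold change -0.68 ± 0.25, edgeR adjusted p = 0.184). Summed endothelial and mural markers were also lower in every E2 library, as given above. Within GDX, Gpr4 was highest in replicate 2, at 5.29 CPM, where that sum was 252 CPM. In GDX replicate 4, where the sum was 592.5 CPM, Gpr4 was 4.88 CPM. The part of these cells in the Gpr4 values was not tested. Gpr65 and Gpr132, proton sensors of immune cells, did not pass the filter.

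Receptor genes known from glia, vessels and immune cells had 10 of 17 members that passed and none that was called. Gpr17, which times the maturation of oligodendrocyte precursors, was 25.4 to 35.8 CPM in the GDX libraries and 23.4 to 28.3 CPM with E2 (log2 fold change -0.28 ± 0.13, edgeR adjusted p = 0.3). Gpr34, a microglial receptor for lysophosphatidylserine, was 1.06, 1.68, 0.824 and 0.921 CPM in the GDX libraries and 1.91, 2.40 and 3.27 CPM with E2. All E2 libraries were higher at this low level (1.18 ± 0.37, adjusted p = 0.119), while the summed microglial markers overlapped, at 70.9 to 93.6 CPM in the GDX libraries and 73.8 to 98.4 CPM with E2. Gpr183, a receptor for oxysterols, was under 1 CPM in every library. Gpr55 and Gpr1 were between 2 and 4 CPM in both groups on average, and Gpr25, 41.6% of whose exon length overlaps the antisense gene Gm26781, was 3.77 and 3.84 CPM. Gpr182, an endothelial scavenger of chemokines, was 7.48 CPM in GDX replicate 4 and 1.37 to 2.21 CPM in the other 6 libraries. Gpr15, Gpr20 and Gpr35 had means under 1 CPM in both groups.

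Some of the class A receptors counted with the brain group above are also made by glia or vessels. Gpr37, made by myelinating cells and by some neurons, was 50.7, 34.1, 31.3 and 34.2 CPM in the GDX libraries and 31.3, 28.8 and 26.4 CPM with E2, so that the highest E2 library lay just below the lowest GDX library, both at 31.3 CPM (log2 fold change -0.38 ± 0.16, edgeR adjusted p = 0.252). The log2 fold change of Gpr37 was -0.20 without GDX replicate 1 and -0.04 with the non-neuronal score in the fit. GDX replicate 1, the highest for Gpr37, was also the highest for summed oligodendrocyte markers, at 5809 CPM, where the other 6 libraries lay between 2588 and 3111 CPM. Gpr62, also made by oligodendrocytes, was 14.5 to 23.3 CPM in the GDX libraries and 14.5 to 19.4 CPM with E2. Gpr146, described in liver lipid metabolism, was 15.6, 14.2, 12.3 and 21.7 CPM in the GDX libraries and 7.70, 9.55 and 11.7 CPM with E2. Its GDX libraries were all higher, most of all replicate 4 (-0.73 ± 0.21, edgeR adjusted p = 0.0916), which also had the highest endothelial and mural sum. Without GDX replicate 3 the edgeR adjusted p of Gpr146 was 0.0443, and limma-voom gave 0.048 and DESeq2 0.0174. Leaving out any other library gave edgeR adjusted p values of 0.102 to 0.324. With the non-neuronal score in the fit its log2 fold change was -0.29 (adjusted p = 0.863). The part of oligodendrocyte and vascular RNA in these values was not tested.

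**Figure D5:**
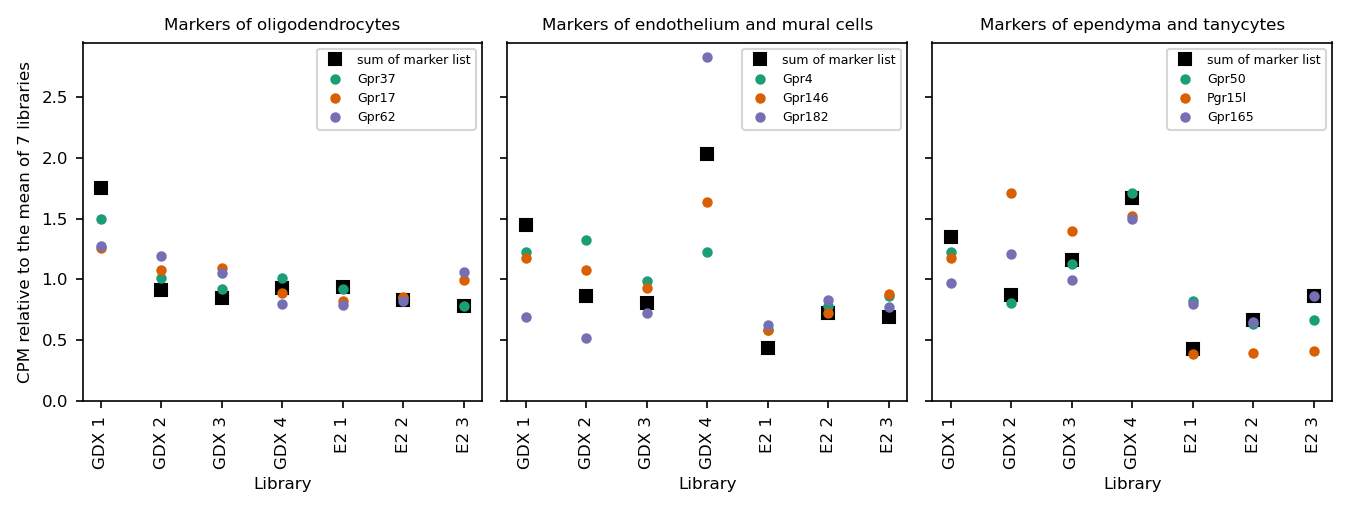
CPM relative to the mean of the 7 libraries (y axis, from 0) in each library (x axis), for summed marker lists (black squares) and for 3 member genes beside each list (coloured points). GDX 1 is highest for oligodendrocyte markers and Gpr37, and GDX 4 for endothelial markers, Gpr146 and Gpr182. Pgr15l and the ependymal sum are both lower in every E2 library than in any GDX library. Before scaling to the mean, Pgr15l lies between 15.6 and 16.8 CPM in E2 and the ependymal sum between 26.7 and 54.1 CPM. Within GDX, Pgr15l is highest in GDX 2 (69.6 CPM), where the ependymal sum is lowest (54.8 CPM). Within E2, both rise from E2 1 to E2 3. The part of ependymal RNA in the Pgr15l values was not tested.

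Genes with a Gpr symbol for proteins of other compartments or folds had 7 of 8 members that passed the filter and none that was called. Gpr107 and Gpr108, Golgi proteins, were 66.6 ± 6.03 and 31.7 ± 2.51 CPM in GDX and 72.9 ± 5.06 and 32.4 ± 0.970 CPM in E2. Gpr137, a lysosomal protein gene, was 64.3 ± 10.4 and 62.1 ± 2.30 CPM, and 15.4% of its exon length overlaps Bad on the opposite strand. Gpr89, the Golgi pH regulator, was 28.3 to 34.2 CPM in the GDX libraries and 34.6 to 40.1 CPM with E2, just above GDX (log2 fold change 0.24 ± 0.10, edgeR adjusted p = 0.267). Pdzk1 overlaps 24.8% of the Gpr89 exon length on the opposite strand. Gpr180 was 25.7 ± 1.31 and 25.2 ± 1.66 CPM, and Gpr155, a lysosomal cholesterol sensor, was 25.6 ± 2.74 and 22.6 ± 2.73 CPM. Gpr157 was low, at 2.87 and 2.75 CPM, and Gpr143, the pigment-cell receptor of melanosomes, did not pass the filter.

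The 15 genes that did not pass included Gpr18, Gpr33, Gpr39, Gpr65, Gpr82, Gpr84, Gpr119, Gpr132, Gpr141, Gpr142, Gpr143, Gpr152, Gpr171 and Gpr174. Their means over the 7 libraries were at most 0.275 CPM, that of Gpr84, a receptor for medium-chain fatty acids on microglia, whose highest library held 0.572 CPM. Gpr33 had no count in any library, and 5 of the 15, with Gpr33 among them, had at most 3 counts in every library. Gpr39, a zinc receptor, had at most 4 counts although 39.9% of its exon length overlaps Lypd1. These values limit the RNA in the pulldown and say nothing of receptor protein.

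Receptor genes without an accepted ligand, or close to the members, that the symbol rule leaves out were examined as a list of 35, of which 32 were tested. None rose and 2 fell by edgeR, where 2.55% of all genes tested were called higher and 1.33% lower. The median log2 fold change of the list was -0.279, beside 0.00403 for all genes tested. Brs3, a bombesin-family orphan, fell from 12.1 ± 2.62 to 2.95 ± 0.508 CPM (-2.04 ± 0.23, adjusted p = 0.000291). Adgrg1, an adhesion receptor gene of many neural cells, fell from 169 ± 13.5 to 126 ± 12.3 CPM (-0.43 ± 0.09, adjusted p = 0.0186). Several further members of this list are made by glia and vessels. The astrocyte sum and the endothelial and mural sum were lower in every E2 library, while the oligodendrocyte and microglial sums overlapped between the groups. The part of glial and vascular RNA in the list's median was not tested.

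Proposed ligands and partners of the members, with some related receptors, formed a list of 37, of which 35 were tested. By edgeR 1 rose and 1 fell, where 2.55% of all genes tested were called higher and 1.33% lower. The median log2 fold change of the list was -0.059. Psap, whose product prosaposin has been proposed as a ligand of Gpr37, rose from 1830 ± 94.8 to 2178 ± 22.4 CPM (0.25 ± 0.06, edgeR adjusted p = 0.0473). Trhr, the thyrotropin-releasing hormone receptor gene, fell from 13.97 ± 1.96 to 8.43 ± 1.56 CPM (-0.73 ± 0.18, adjusted p = 0.0439). It was listed as a relative of Gpr83 in family trees and not as a ligand or partner. Pcsk1n, which encodes proSAAS, was abundant at 1591 ± 231 and 1416 ± 152 CPM and did not pass (adjusted p = 0.518). Rgs7 and Gnb5, partners of Gpr158, did not pass at log2 fold changes of 0.31 and 0.12, and Gnaz, the Gz gene paired with Gpr176, was 115 and 112 CPM. Gpc4, a glypican that binds Gpr158, was 10.8 ± 1.36 and 6.93 ± 0.236 CPM (-0.64 ± 0.17, adjusted p = 0.0578).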

How the data were processed

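Ribosome-bound RNA was sequenced from 7 pooled samples, from unstranded polyadenylated RNA libraries per the labels' protocols. The authors deposited a table of expected counts per gene, of whose non-zero values 33.1% are not exactly whole. The submitters' processing notes name build mm10 and, without roles or order, RSEM 1.3.0, STAR 2.6.0a and Trimmomatic 0.38, and the annotation is not given in the sources used here. Of 55384 identifiers, 55203 matched GENCODE vM21 on GRCm38, which gave symbols, positions and exon lengths.

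Counts were rounded and tested in R 4.3.3 with edgeR 4.0.16 (TMM factors, filterByExpr at 10 counts in the 3 libraries of the smaller group and 15 in total, robust quasi-likelihood test), E2 against GDX, with Benjamini-Hochberg adjustment over all genes tested and a threshold of 0.05. Fold changes use a prior count of 0.125. The procedure was tested on simulated data. Alternatives used DESeq2 1.42.0, limma 3.58.1 and the settings of the closing section. Every member that passed the filter with a mean of at least 10 CPM in either group, a call or groups without overlap was named with values, and the others were given by level. Some members are counted but not reported here by name. The receptors outside the symbol rule, and the ligands, partners and related receptors, were listed by function or relation. Members and lists were chosen with earlier results of these data known, and 4 promoters were picked for display after motifs were seen. Floors and intervals cover counting error or spread between pools only.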

Additional observations from a re-analysis of the deposited data

Results flagged for a closer look

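In the GDX group, 3 of the 55 tested members had a library that stood apart from the other 3 by Dixon's 95% criterion on the gap to the nearest library, which chance gives in about 1 of 20 groups. Gpr37 was 50.7 CPM in GDX replicate 1 and 31.3 to 34.2 CPM in the others. Gpr137 was 48.9 CPM in GDX replicate 4 and 68.0 to 70.4 CPM in the others. Gpr182, an endothelial scavenger of chemokines, was 7.48 CPM in GDX replicate 4, 1.37 to 1.92 CPM in the other GDX libraries and 1.66 to 2.21 CPM in E2. Summed endothelial and mural markers were 592.5 CPM in that library and 235 to 422 CPM in the other GDX libraries, and their part in the Gpr182 value was not tested.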

How the results depend on the processing

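Pgr15l was called lower in the 18 alternative fits, with log2 fold changes from -2.05 to -1.79 and adjusted p values from 2.69e-51 to 0.00021. The count of members called lower, 1 as reported, was 6 with no low-count filter, 2 with a mean of at least 5 CPM, 5 with DESeq2 and 3 with limma-voom, and 1 to 3 with 1 library left out. The count called higher, 0 as reported, was 1 with no low-count filter, 3 with DESeq2, 1 with limma-voom and 1 with the non-neuronal covariate, and 0 to 1 with 1 library left out. Chosen after the data were seen, library sizes without scaling factors gave 2 lower, and leaving out GDX 1 and GDX 4 together gave 1 higher and 2 lower. The extra calls included Gpr101, Gpr146, Gpr165, Gpr37 and Gpr50 (lower) and Gpr6 (higher), and the cause was not tested. Members present numbered 55 by the filter, 48 at 1 CPM and 35 at 5 CPM.

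No paired design is stated: same-numbered GDX and E2 libraries had correlations of -0.021, -0.038 and -0.055 between their deviations. With the replicate number as a block the counts stayed at 0 higher and 1 lower, and Pgr15l had a log2 fold change of -1.84. Of 643 pairs of a named member and an alternative, 592 kept direction and side of the threshold, 25 were called only in the alternative, and 26, in 8 members, changed sign. Gpr108 was -0.021 with the block, -0.014 with the covariate, -0.028 without scaling factors, -0.018 without GDX 1 and 4, and -0.021 to 0.061 with 1 library left out. Gpr158 was 0.02 with the block, 0.043 with the covariate, 0.022 without GDX 1 and 4 and -0.079 to 0.037 with 1 left out. Gpr61 was -0.146 with the covariate, -0.073 without GDX 1 and 4 and -0.033 to 0.139 with 1 left out. Gpr85 was -0.047 with the covariate, -0.006 without scaling factors, -0.019 without GDX 1 and 4 and -0.007 to 0.109 with 1 left out. Gpr180 was 0.003 with the covariate and -0.078 to 0.016 with 1 left out. Ranges with 1 left out were -0.089 to 0.082 for Gpr162, -0.195 to 0.045 for Gpr45 and -0.174 to 0.015 for Gpr75. Low counts limit Gpr15, Gpr20, Gpr35, Gpr63, Gpr151, Gpr160 and Gpr183, whose intervals span over 2 log2 units.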

Other observations

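Within 1000000 bp on either side of Pgr15l on the X chromosome, 4 other genes were tested and none was called by edgeR. Msn, which encodes the membrane linker moesin, had a mean of 47.3 CPM in the GDX libraries and 19.5 CPM with E2 (log2 fold change -1.28 ± 0.42, adjusted p = 0.2). Heph, a copper oxidase gene, was 5.46 and 4.20 CPM (-0.38 ± 0.40, adjusted p = 0.723), and the pseudogene Rpl17-ps8 was 1.72 and 2.56 CPM. Gpr165, the nearest tested gene to Pgr15l, is described above.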
